A study of Mus musculus with 8 samples.

Results

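Metallothioneins are small, cysteine-rich proteins that bind zinc, copper and cadmium in the cytosol. In isolated hepatocytes at rest, the comparison of hCNR1-/- with hCNR1+/+ mice asks how the loss of the cannabinoid 1 receptor (CB1R) changes hepatocyte mRNA. The 5 genes described here are the metallothioneins Mt1 and Mt2, the zinc-sensing transcription factor Mtf1, the zinc exporter Slc30a1 and the manganese exporter Slc30a10, among 21368 genes named on the arrays. Every non-control probe whose accession belongs to one of these genes was taken, which gave 8 of 55681 probes. Of the 8 probes, 2 belong to Mt1, 3 to Mtf1 and 1 to each of the other genes, and 7 were well above background on at least 4 arrays. All 5 genes had such a probe and were tested.

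RNA of isolated hepatocytes was hybridised, in a single colour (Cy3), to 8 Agilent mouse arrays. The 4 hCNR1+/+ arrays (label hCNR1_WT, strain CNRO) and the 4 hCNR1-/- arrays (label hCNR1_cKO, strain CNRO Alb-Cre) came from male mice aged 12 to 14 weeks on the standard diet. In the hCNR1-/- mice the CB1R gene, floxed in the CNR1flox/flox parents, is removed by Cre under the albumin promoter, which is active in hepatocytes. The control mice were littermates, and the labels give the Cre only in the strain name of the hCNR1-/- group. All arrays lay on 1 slide, with each genotype in a row of its own, so that an effect of the slide row and an effect of genotype cannot be told apart. The labels do not say whether each array is a separate mouse, so p-values measure the spread between these samples.

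In liver, metallothionein mRNA is known to rise with zinc, copper, cadmium, glucocorticoids and inflammatory cytokines. When cytosolic zinc rises, MTF1 binds metal response elements in the promoters of Mt1, Mt2 and Slc30a1 and raises their transcription. The protein encoded by Slc30a1 (ZnT1) exports zinc across the plasma membrane, and that of Slc30a10 exports manganese into bile.

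The promoters of Mt1, Mt2 and Slc30a1 are shown because MTF1 is known to act on these genes through metal response elements. The printed bases need not hold all of these elements, and in Mt1 they hold 1 of the 3 cores found. The sequences are the 250 bases before the gene start given by RefSeq on GRCm38.p6, on the plus strand, at chr8:94178839-94179088 for Mt1, chr8:94172368-94172617 for Mt2 and chr1:191906531-191906780 for Slc30a1. Capitals mark the 7 bases of a metal response element core, written as TGCACNC or TGCGCNC and searched on both strands.
Mt1 promoter: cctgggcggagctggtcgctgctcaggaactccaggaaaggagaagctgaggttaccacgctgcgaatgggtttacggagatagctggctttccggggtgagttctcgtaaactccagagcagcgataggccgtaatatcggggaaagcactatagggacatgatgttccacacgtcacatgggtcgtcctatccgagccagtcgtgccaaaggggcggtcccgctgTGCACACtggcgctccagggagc
Mt2 promoter: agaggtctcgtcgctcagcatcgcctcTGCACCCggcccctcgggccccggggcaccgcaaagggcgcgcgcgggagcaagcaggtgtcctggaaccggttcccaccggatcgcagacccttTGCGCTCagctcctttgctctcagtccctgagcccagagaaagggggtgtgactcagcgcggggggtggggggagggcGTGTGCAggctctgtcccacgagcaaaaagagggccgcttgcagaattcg
Slc30a1 promoter: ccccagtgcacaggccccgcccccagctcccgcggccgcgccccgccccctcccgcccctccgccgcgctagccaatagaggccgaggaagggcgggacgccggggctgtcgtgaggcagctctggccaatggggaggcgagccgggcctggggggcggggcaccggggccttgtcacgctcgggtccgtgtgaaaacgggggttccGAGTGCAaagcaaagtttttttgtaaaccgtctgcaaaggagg
In the whole window of 300 bases, which runs 50 bases past the start, Mt1 held 3 cores, Mt2 held 4, Slc30a1 held 2, Slc30a10 held 3 and Mtf1 held 0. In Mt1 a core began 23 bases before the start used here and the other 2 began 3 and 21 bases after it. Whether transcription begins at that start was not tested, so these places are not distances from a measured start. Of all 32851 promoter windows of this length, 25.7% held at least 1 core and 7.11% held 2 or more. Of the same windows, 1.97% held 3 or more and 0.517% held 4 or more. In Slc30a10, 2 of the 3 matches overlap on opposite strands. A match is a description of the letters and not a measured binding site. RefSeq lists 2 transcripts for Mt1, a curated and a predicted one. The extent of the gene begins inside the window printed above, upstream of the start used there. For Slc30a1 RefSeq also lists 2 transcripts, and the extent of that gene likewise begins upstream of the start used.

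Values are log2 signals relative to the 75th percentile of the same array, so that 0 is the level of that percentile and a step of 1 is a doubling. The percentile was 62.0 to 139 intensity units on hCNR1+/+ arrays and 29.3 to 124 on hCNR1-/- arrays, with hCNR1-/- replicate 4 the dimmest. From 28.6% to 42.3% of spots were well above background and no spot was saturated. The Cnr1 probe was at background on every array, so on these arrays genotype rests on the labels. The paper also reports Cnr1 mRNA in isolated hepatocytes of both genotypes. Of 17 tested hepatocyte markers, 17 were well above background on all 8 arrays, and their mean signal on the log2 scale was 8.67 ± 0.35 (SD) over the 4 hCNR1+/+ arrays and 8.79 ± 0.13 (SD) over the 4 hCNR1-/- arrays.

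None of the 5 genes passed the test by its brightest probe, whereas the probe of the predicted Mt1 transcript was lower in hCNR1-/- hepatocytes on all 4 arrays, by 7.84-fold. At a fold change above 2 with an unadjusted p below 0.05, limma called 0 of the 5 genes lower and 0 higher, where 3.75% of all 11072 tested genes were lower and 4.78% higher. At a Benjamini-Hochberg adjusted p below 0.05 the counts were again 0 and 0, against 1.3% and 2.94% of all tested genes. An unadjusted p below 0.05 was reached by 0 of the 5, against 21.6% of all tested genes.

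**Figure D1:**
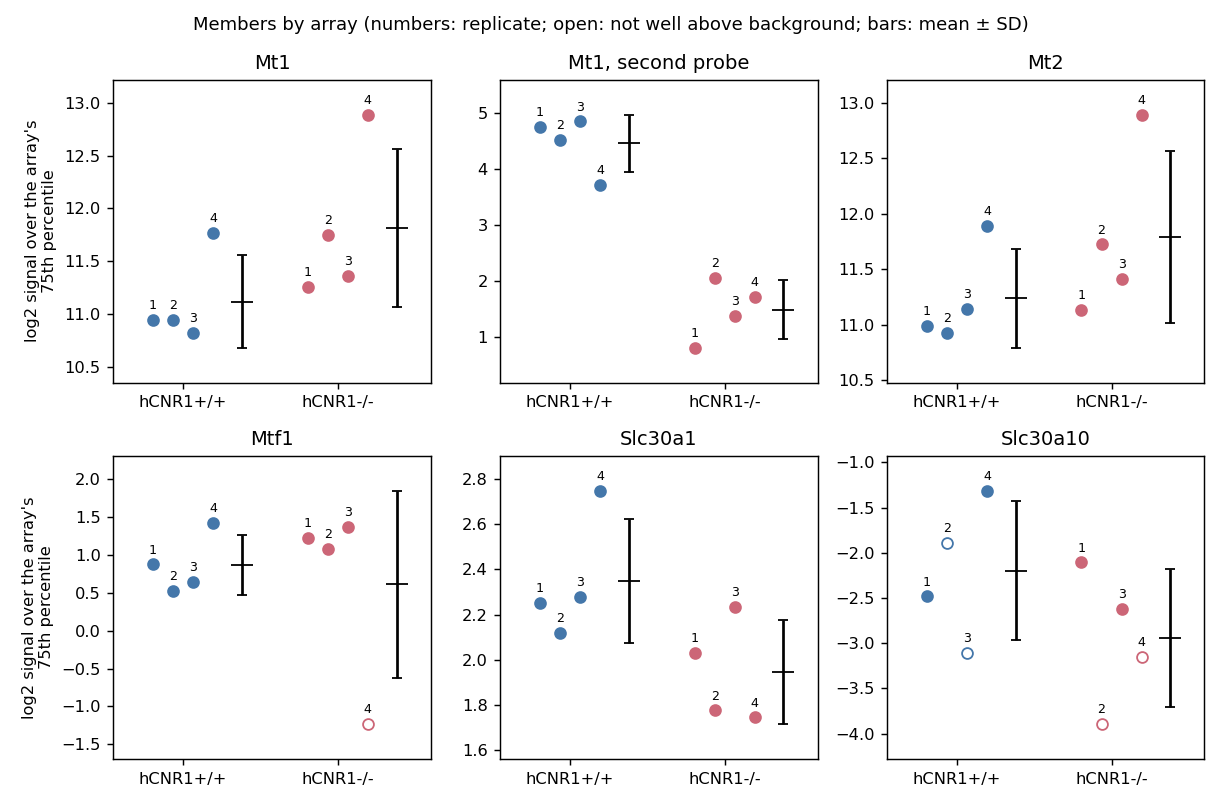
Scaled log2 signal of each gene by genotype and replicate, with filled points where the probe was well above background, open points where it was not, and bars for the mean ± SD of 4 arrays. In the panel of the second Mt1 probe all hCNR1-/- arrays lie at or below 2.04 and all hCNR1+/+ arrays at or above 3.72, while the groups overlap in the other 5 panels.

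Mt1 was read by a probe of its curated transcript (A_66_P111660). Its log2 signal was 10.95, 10.94, 10.82 and 11.77 on hCNR1+/+ arrays 1 to 4 and 11.26, 11.75, 11.36 and 12.89 on hCNR1-/- arrays 1 to 4. The highest hCNR1+/+ array, replicate 4, lay above 3 of the 4 hCNR1-/- arrays, so the groups overlapped. The group means were 11.12 ± 0.44 for hCNR1+/+ and 11.81 ± 0.75 for hCNR1-/- (SD, n = 4 each). The log2 fold change was 0.70 (standard error 0.38, limma adjusted p = 0.324) with an interval of the difference, at 95% confidence, from -0.16 to 1.55. The exact two-sided permutation test over the 70 assignments of arrays gave p = 0.171, where the smallest possible p is 0.0286.

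Mt2, which lies next to Mt1 on chromosome 8, has 1 probe (A_51_P246317). Its log2 signal was 10.99, 10.93, 11.14 and 11.89 on hCNR1+/+ arrays 1 to 4. On hCNR1-/- arrays 1 to 4 it was 11.13, 11.72, 11.41 and 12.89. As for Mt1, replicate 4 was the highest array of both genotypes and the groups overlapped. The log2 fold change was 0.55 (standard error 0.39, limma adjusted p = 0.447), with a 95% interval from -0.32 to 1.43 and an exact permutation p of 0.286.

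Before scaling, both metallothionein probes were nearly level across the arrays. The Mt2 spot ran from 222832 to 278588 intensity units, a 1.25-fold range, and the curated Mt1 spot from 199115 to 303565, a 1.52-fold range. Both were among the 41 brightest of 55646 probes on every array, and their raw signal reached at most 38.5% of the scanner's saturation value. The 75th percentile of the same arrays ran from 29.3 to 139 units. Whether spots this bright still report differences in mRNA in full was not tested, which limits the readings of Mt1 and Mt2. The scaled Mt2 signal followed the dimness of the array, with Pearson's r = 0.997 and Spearman's rho = 1.00 between the scaled signal and minus log2 of the array's 75th percentile over the 8 arrays, a relation in which the percentile enters both sides. For the curated Mt1 probe the same r was 0.96. Leaving out the scaling lowered the log2 fold change of every gene by the same 0.56, to 0.14 for Mt1, -0.0017 for Mt2 and -0.47 for the median of all tested genes, so that Mt1 and Mt2 kept their distance from that median. Quantile normalization, which does not shift all genes alike, gave 0.22 for Mt1 and 0.04 for Mt2, with an all-gene median of -0.01.

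**Figure D2:**
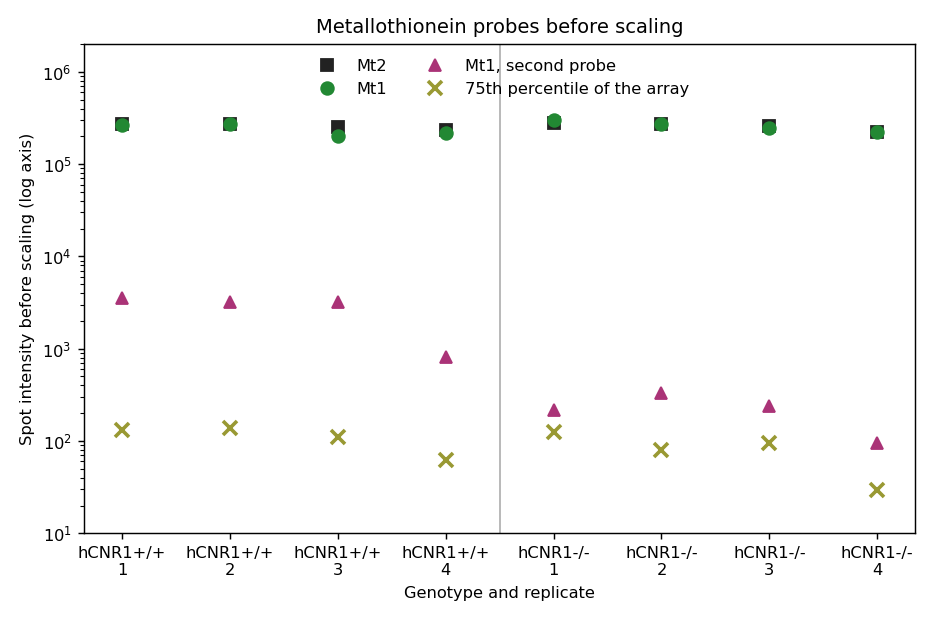
Spot intensity before scaling, on a log axis, of the metallothionein probes and of the 75th percentile of each array, by genotype and replicate. The curated Mt1 probe and the Mt2 probe stay between 199115 and 303565 units on all 8 arrays, whereas the second Mt1 probe drops from 815 or more on hCNR1+/+ arrays to 327 or less on hCNR1-/- arrays.

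Among the 111 genes in the brightest 1% of those tested, the median log2 fold change was 0.35 when scaled by the 75th percentile, against 0.08 over all tested genes, and -0.08 after quantile normalization, against -0.01. The genes whose main probe followed Mt2 most closely over the 8 arrays, among 8336 genes well above background on every array, were Serpina1a (a protease inhibitor), Gstp2 (a glutathione transferase), Hpx (hemopexin, which binds haem), Apoe (apolipoprotein E) and Nf1, with Pearson's r from 0.99 to 1.00 and Spearman's rho from 0.95 to 1.00. For the curated Mt1 probe they were Csrnp3, Hspb9, Def6, Serpina1e and Hpx, with r from 0.98 to 0.99 and rho from 0.90 to 0.98. Without the arrays farthest from the median, the lowest r was 0.964 for the genes named with Mt2 and 0.946 for those named with Mt1. The points share the scaling of each array. Mt1 and Mt2 correlated with each other at r = 0.98 (rho = 0.86) when scaled and r = 0.81 (rho = 0.88) when not.

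**Figure D3:**
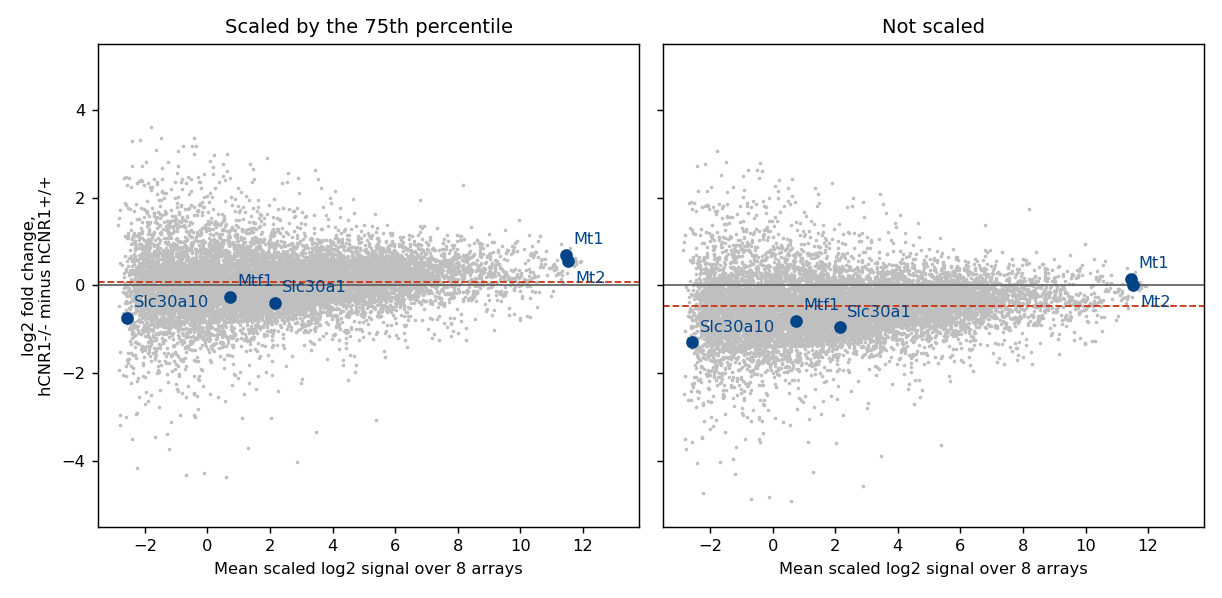
Log2 fold change (hCNR1-/- minus hCNR1+/+) against the mean scaled log2 signal over 8 arrays for the 11072 tested genes, with and without scaling, the 5 genes marked and the all-gene median dashed. Mt1 and Mt2 sit at the bright end, at 0.70 and 0.55 with scaling and at 0.14 and -0.0017 without it, and the dashed median moves with every point, from 0.08 to -0.47.

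The second Mt1 probe (A_52_P423810) is assigned to the predicted transcript of the gene. Its log2 signal was 4.74, 4.51, 4.84 and 3.72 on hCNR1+/+ arrays 1 to 4 and 0.81, 2.04, 1.36 and 1.72 on hCNR1-/- arrays 1 to 4. Every hCNR1-/- array lay below every hCNR1+/+ array, which held for 6.6% of the 19985 probes tested on their own. The group means were 4.45 ± 0.51 for hCNR1+/+ and 1.48 ± 0.53 for hCNR1-/- (SD, n = 4 each). The log2 fold change was -2.97 (standard error 0.34, 95% interval -3.73 to -2.21), with a limma adjusted p of 0.00157 in the fit of each probe on its own. In that fit 3.46% of the probes were lower at an adjusted p below 0.05, and 200 of the 19985 had a lower log2 fold change than this probe. The exact two-sided permutation p was 0.0286, the smallest that 4 against 4 arrays allow.

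The fall of this probe did not rest on scaling or on any single array. Before scaling its intensity was 3557, 3180, 3166 and 815 units on hCNR1+/+ arrays and 217, 327, 242 and 96.1 on hCNR1-/- arrays, and without scaling the log2 fold change was -3.53. In 21 alternative settings it lay between -3.53 and -2.63, with adjusted p-values from 5.14e-05 to 0.0146. Leaving out the dimmest array, hCNR1-/- replicate 4, gave -3.05.

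The estimates from the Mt1 probes had opposite signs. Their log2 fold changes differed by 3.67, whereas the median distance between the probes of a gene was 0.33 over the 2487 genes with at least 2 tested probes, of which 5 were as far apart as Mt1 or farther. Of 33 genes with tested probes of both a predicted and a curated transcript, the predicted one was lower in 13, by as much as in Mt1 in 2 (Mt1 included), and the median difference was 0.11. At a limma adjusted p below 0.05, 5 of the 90 tested probes of predicted transcripts were lower (5.56%) and 5 were higher. Of the 13908 tested probes of curated transcripts, 1.78% were lower. The median log2 fold change was 0.12 over the predicted probes and 0.08 over the curated ones. Over the 8 arrays the scaled signals of the Mt1 probes gave r = -0.53 and rho = -0.57. The probe's own sequence and its place on the gene were not analysed here, and an average over both probes would give Mt1 a log2 fold change of -1.14 (adjusted p = 0.0529).

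The genes whose signal followed the second Mt1 probe most closely, looked up after its values had been seen, were Neat1, Mapk8ip3, Porcn, Zfp687 and Lncpint, with Pearson's r from 0.95 to 0.97 and Spearman's rho from 0.76 to 0.95 over the 8 arrays. Without the arrays farthest from the median, the lowest r was 0.925. Neat1, a long noncoding RNA that builds nuclear paraspeckles, had a log2 fold change of -3.34, and Lncpint, another long noncoding RNA, one of -3.71. The other genes named changed less, Mapk8ip3 by -0.88, Porcn by -1.01 and Zfp687 by -0.80. The genotype difference itself lies in these correlations, since the probes were matched over all arrays.

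Markers of Kupffer cells, the macrophages of the liver, moved with the genotype as well. Of 14 listed markers 11 were tested, and all 11 had a log2 fold change below 0, as had 43.4% of all tested genes. At a fold change above 2 with an unadjusted p below 0.05, 5 were lower (3.75% of all tested genes), and at an adjusted p below 0.05, 2 were lower (1.3%). The 5 were Ctss, Marco, Vsig4, Clec4f and C1qa, of which Ctss and Marco passed the adjusted threshold. Of the 11 tested markers, 8 were well above background on all 8 arrays. Ctss and Vsig4 were so on 4 hCNR1+/+ but only 2 hCNR1-/- arrays, and Clec4f on 4 and 3. The mean of the 11 ran from 1.14 to 2.36 on hCNR1+/+ arrays and from 0.10 to 0.93 on hCNR1-/- arrays. Of the other markers Timd4 was well above background on 0 arrays, Lyz2 on 1 and Adgre1 on 3. By either rule limma called 0 of the 8 tested endothelial, 2 stellate cell, 1 neutrophil, 3 lymphocyte, 2 cholangiocyte and 2 erythrocyte markers. Still, Cd3e (log2 fold change 0.90), Cd4 (0.61) and the neutrophil marker Elane (0.70) lay higher on every hCNR1-/- array. Such a separation upward held for 12.7% of tested genes. Of the 17 hepatocyte markers, Ass1 was lower by the rule of fold change and unadjusted p, and Apob was higher by both rules. Within hCNR1+/+ arrays, replicate 4 was the dimmest and had the highest mean of Kupffer markers, 2.36, and of hepatocyte markers, 9.18. It also had the lowest signal of the second Mt1 probe, 3.72. The part of Kupffer cell RNA in that probe's fall was not tested. In preparations of this kind, fewer cells of a type and less RNA per cell cannot be told apart.

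Mtf1 was dim, and no difference between genotypes beyond the spread of the arrays was detected. Its brightest probe (A_52_P467266) had a log2 signal of 0.87, 0.52, 0.65 and 1.42 on hCNR1+/+ arrays 1 to 4 and 1.22, 1.08, 1.37 and -1.23 on hCNR1-/- arrays 1 to 4. The last value, from the dimmest array, was not well above background and lay apart from the other three. The log2 fold change was -0.26 (standard error 0.54, limma adjusted p = 0.812, exact permutation p = 0.914), and 0.36 without that array (adjusted p = 0.329). A second Mtf1 probe (A_55_P2069277), well above background on all 8 arrays, gave -0.14 (adjusted p = 0.859). The third (A_52_P55666) was well above background on 0 arrays.

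Slc30a1 had a log2 signal of 2.25, 2.12, 2.28 and 2.75 on hCNR1+/+ arrays 1 to 4 and 2.03, 1.78, 2.23 and 1.75 on hCNR1-/- arrays 1 to 4. On 3 of the 4 hCNR1-/- arrays it lay below every hCNR1+/+ array, and replicate 3 lay among them. The group means were 2.35 ± 0.27 for hCNR1+/+ and 1.95 ± 0.23 for hCNR1-/- (SD, n = 4 each). Their difference was -0.40 on the log2 scale (standard error 0.22, limma adjusted p = 0.322, exact permutation p = 0.0571). The 95% interval ran from -0.90 to 0.09. Its direction stayed below 0 in all 22 alternative settings, from -0.96 to -0.20, with a lowest adjusted p of 0.1595.

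Slc30a10 was near the background. In each genotype 2 of 4 arrays read its probe well above background. Its log2 signal was -2.48, -1.89, -3.11 and -1.32 on hCNR1+/+ arrays 1 to 4 and -2.11, -3.89, -2.62 and -3.15 on hCNR1-/- arrays 1 to 4. The groups overlapped. The log2 fold change was -0.74 (standard error 0.46, limma adjusted p = 0.386, exact permutation p = 0.200), with a 95% interval from -1.78 to 0.29. Over 21 alternative settings it ran from -1.30 to -0.14, and with 1 array left out from -1.05 without hCNR1+/+ replicate 3 to -0.43 without hCNR1-/- replicate 2.

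**Figure D4:**
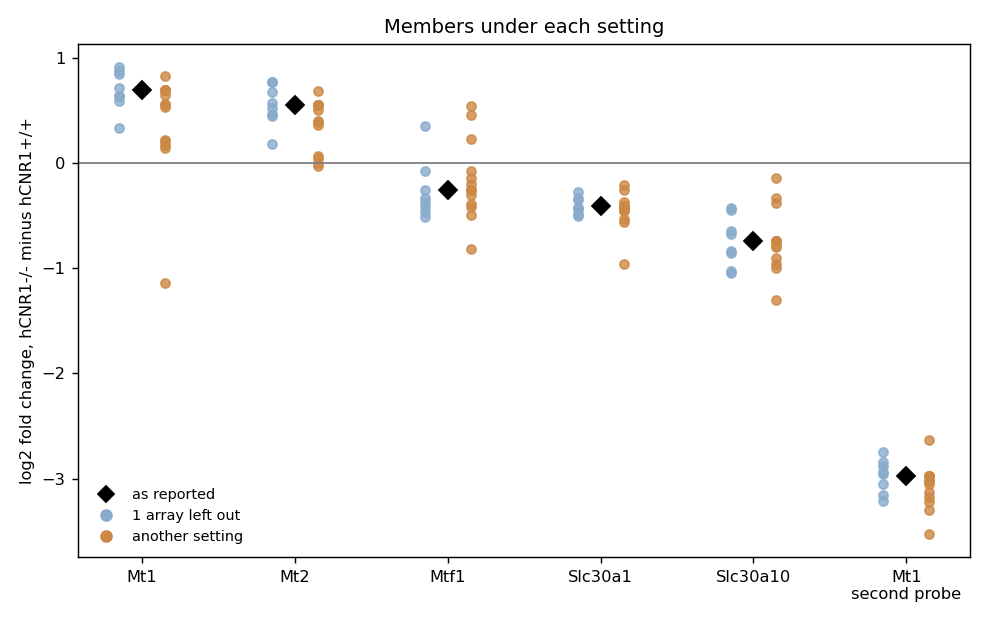
Log2 fold change (hCNR1-/- minus hCNR1+/+) of each gene and of the second Mt1 probe as reported (diamonds), with 1 array left out (blue points) and under another setting (orange points). The second Mt1 probe stays between -3.53 and -2.63, Slc30a1 and Slc30a10 stay below 0, and points of Mt1, Mt2 and Mtf1 lie on both sides of 0.

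Mt3 and Mt4 lie beside Mt1 and Mt2 in a cluster on chromosome 8, in the order Mt4, Mt3, Mt2, Mt1 with a predicted noncoding gene between Mt3 and Mt2. Mt3, a form known best from the brain, had a log2 signal of 0.99, 1.06, 1.21 and 1.57 on hCNR1+/+ arrays and 1.75, 1.61, 1.50 and 2.74 on hCNR1-/- arrays. The groups overlapped by 1 array, and the log2 fold change of 0.69 (standard error 0.30, limma adjusted p = 0.219, exact permutation p = 0.0571) was 0.67 after quantile normalization. Mt4, best known from stratified epithelia, gave -0.09 (standard error 0.39, adjusted p = 0.92). Neither passed the test.

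Zinc transporters fall into the Slc30a family (ZnT), which moves zinc out of the cytosol, and the Slc39a family (ZIP), which moves it in. Genes were counted by family, so the manganese exporter Slc30a10 is among the Slc30a genes here and wherever zinc transporters are counted. Of the 24 listed genes, 17 were tested, 7 of 10 Slc30a and 10 of 14 Slc39a genes. Under limma 0 were lower and 0 higher by either rule, against the shares of all tested genes given above, and 3 of 17 had an unadjusted p below 0.05, where 21.6% of all tested genes did. The median log2 fold change was -0.35 over the Slc30a genes, 0.23 over the Slc39a genes and 0.08 over all tested genes, and after quantile normalization -0.43, 0.0075 and -0.01.

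**Figure D5:**
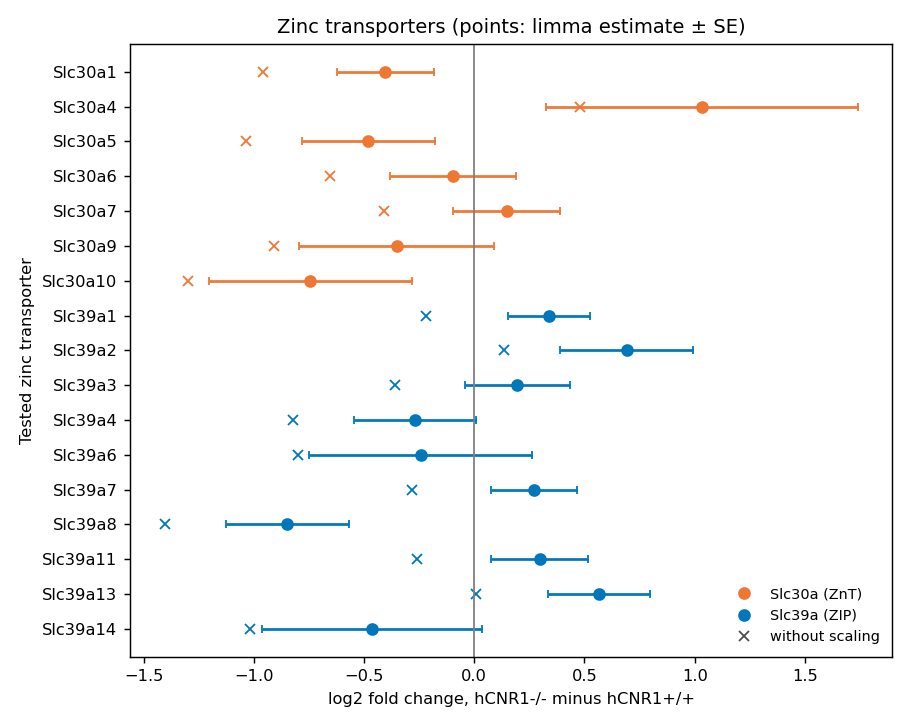
Log2 fold change (hCNR1-/- minus hCNR1+/+) of the 17 tested zinc transporters, with points and bars for the limma estimate ± standard error and crosses for the value without scaling. The estimates run from -0.85 for Slc39a8 to 1.03 for Slc30a4, and the crosses lie to the left of every point by the same 0.56.

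The smallest p among them was that of Slc39a8 (ZIP8), an importer of zinc and manganese. Its log2 signal was -0.88, -1.08, -1.33 and -0.18 on hCNR1+/+ arrays and -1.69, -2.02, -1.76 and -1.39 on hCNR1-/- arrays. All 4 hCNR1-/- arrays lay below all hCNR1+/+ arrays, which held for 5.04% of tested genes. The log2 fold change was -0.85 (standard error 0.28, limma adjusted p = 0.117, exact permutation p = 0.0286), and over 21 alternative settings it ran from -1.40 to -0.41 with adjusted p-values from 0.0264 to 0.658. The 2 settings with an adjusted p below 0.05 were the fit with array weights and the fit without both arrays numbered 4. The Kupffer cell markers moved the same way, and their part was not tested.

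Slc39a13 (ZIP13) lay higher on all 4 hCNR1-/- arrays, from 3.43 to 3.90 against 2.56 to 3.33, and Slc39a1 (ZIP1), a plasma membrane importer, from 7.68 to 7.98 against 7.31 to 7.64. Such a separation upward held for 12.7% of tested genes. The log2 fold changes were 0.57 (limma adjusted p = 0.197) and 0.34 (adjusted p = 0.326), and after quantile normalization 0.49 and 0.06. Slc30a4, which loads zinc into vesicles, had the highest estimate, 1.03 (standard error 0.71, adjusted p = 0.432), with hCNR1+/+ array 4 at -2.38, not well above background, and the other arrays between 0.11 and 1.59. Slc39a14 (ZIP14), a hepatocyte importer of zinc, iron and manganese, gave -0.46 (standard error 0.50, adjusted p = 0.626) and 0.05 without hCNR1-/- replicate 4. The remaining 12 tested transporters, Slc30a1 and Slc30a10 included, ran from -0.74 to 0.69.

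Of 7 further genes linked to MTF1 in other systems 6 were tested, and 2 of these had a log2 fold change below 0, where 43.4% of all tested genes had. By both rules 1 was lower, against 3.75% and 1.3% of all tested genes, and 0 were higher, and the median log2 fold change was 0.18, against 0.08 over all tested genes. The gene that fell was Ndrg1, which also responds to hypoxia and stress. Its log2 signal ran from 4.56 to 6.27 on hCNR1+/+ arrays and from 3.09 to 3.74 on hCNR1-/- arrays, with a log2 fold change of -1.70 (standard error 0.38, limma adjusted p = 0.0406). Of 6 manganese-handling genes, all tested, 0 were lower and 0 higher by either rule. The smallest p-values there were those of Slc39a8, given above, and Slc11a2 (DMT1), an importer of iron and manganese, with a log2 fold change of -0.24 (adjusted p = 0.606).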

How the data were processed

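Labelled RNA of isolated hepatocytes was read on 8 single-colour arrays. The authors deposited Feature Extraction 12.0.3.1 spot intensity, background-corrected and not scaled between arrays, and a score per spot within 0.005 of the z-score of its log intensity. Here, log2 intensities were centred on each array's 75th percentile of 59305 non-control spots, outlier spots were dropped and spots of a probe were averaged. Accessions were matched to RefSeq names (GRCm38.p6; the design names mm9). Genes with a probe measured on all 8 arrays and well above background on at least 4 were tested by their brightest probe with limma 3.58.1 (R 4.3.3), lmFit and eBayes, adjusted by Benjamini-Hochberg over 11072 genes; each probe was also fitted alone. The procedure was tested on simulated data. The number of arrays limits the precision. The members and lists were chosen with earlier results of these data known. Named were all probes of the members, the tested zinc transporters, in other lists the genes past a fold change of 2 with unadjusted p below 0.05 (at most 5) or else the 2 smallest p-values, and the 5 genes most correlated with Mt1 and with Mt2. Alternatives were other scalings, the deposited scores, normexp (offset 50) on median signals, other filters, other probe choices, variance models, array weights, a replicate block and leaving out arrays.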

Additional observations from a re-analysis of the deposited data

Results flagged for a closer look

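Of 44 groups of 4 arrays searched for an array that stood away from its group, over the member probes and the tested zinc transporters, 2 held one, where chance alone gives about 1 in 20. For the curated Mt1 probe, hCNR1+/+ replicate 4 lay at 11.77 and the other three between 10.82 and 10.95, with a gap of 0.866 of the group's range. For the brightest Mtf1 probe, hCNR1-/- replicate 4 lay at -1.23, not well above background, and the other three between 1.08 and 1.37, with a gap of 0.891 of the range. Both are replicate 4, the dimmest array of its genotype, with a 75th percentile of 62.0 and 29.3 intensity units.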

How the results depend on the processing

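Mt1 kept its direction in 21 of 23 alternatives, and both that turned it used the second probe, averaged in (-1.14) or alone (-2.97, the 1 alternative with an adjusted p below 0.05). Mt2 turned in 2 of 22, to -0.031 after normexp and quantile normalization and to -0.0017 without scaling. Leaving out the scaling moves every gene by the same amount, so the distance of Mt2 from the all-gene median must stay at 0.47. After quantile normalization that distance was 0.06. Mtf1 turned in 4 of 23, to 0.46 with array weights, 0.36 without hCNR1-/- replicate 4, 0.23 without that array and without scaling, and 0.54 without both arrays numbered 4, the last pair chosen after seeing the data. Leaving out 1 array at a time moved Mt1 from 0.34 to 0.91, Mt2 from 0.19 to 0.77 and Mtf1 from -0.51 to 0.36, and none of these passed the adjusted threshold. Slc30a1 (-0.96 to -0.20) and Slc30a10 (-1.30 to -0.14) kept their direction in all alternatives run, and with only probes well above background on all 8 arrays Slc30a10 could not be tested. The second Mt1 probe kept its direction and its adjusted p below 0.05 in 21 of 21; these alternatives were added after its values had been seen. At a fold change above 2 with an unadjusted p below 0.05, 0 zinc transporters became 1 lower (Slc39a8) with the 75th percentile of bright probes, without scaling, with the deposited scores and without scaling and hCNR1-/- replicate 4, and 0 to 2 with 1 array left out, 2 (Slc39a8 and Slc30a10) without hCNR1+/+ replicate 3. At the adjusted threshold the count was 1 (Slc39a8) with array weights and 1 without both arrays numbered 4. The cause of these changes was not tested. The same-numbered arrays did not deviate together (correlations from -0.16 to 0.21), so the numbers are not taken as a pairing. With the replicate block the log2 fold change of Mt1 was 0.70, that of Mt2 0.55, and 0 zinc transporters were called by either rule. The Slc30a10 probe, well above background on 4 of 8 arrays, and the Mtf1 value of hCNR1-/- replicate 4 are limited by the background.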

Other observations

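Other lists that touch on metallothionein regulation were described by their counts. Of 12 tested genes that respond to glucocorticoids, 3 were lower and 0 higher at a fold change above 2 with an unadjusted p below 0.05, against 3.75% and 4.78% of all tested genes, and 0 passed the adjusted threshold of limma. They were Pck1, a gluconeogenic enzyme (log2 fold change -1.81, adjusted p = 0.0515), Ddit4, a stress-induced inhibitor of mTOR signalling (-1.20, adjusted p = 0.0619), and Tdo2, which degrades tryptophan (-1.03, adjusted p = 0.205). The list's median was -0.23, against 0.08 over all tested genes. Of 16 acute phase genes, 3 were lower by the same rule (3.75% of all tested genes) and 1 was lower at the adjusted threshold (1.3%). They were Orm1 and Orm2, which encode orosomucoids (-1.11, adjusted p = 0.0494, and -1.04, adjusted p = 0.101), and Socs3, a feedback inhibitor of cytokine signalling (-1.35, adjusted p = 0.165). By either rule 0 acute phase genes were higher, against 4.78% and 2.94% of all tested genes. The median of the acute phase list was 0.04, and 7 of the 16 had a log2 fold change below 0, where 43.4% of all tested genes had.

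Copper-handling genes had 10 of 12 members tested, of which 0 passed a fold change of 2 with an unadjusted p below 0.05 and 1 was higher at the adjusted threshold (2.94% of all tested genes). It was Commd1, which takes part in copper export, with log2 signals from 3.29 to 3.83 on hCNR1+/+ and from 4.46 to 4.59 on hCNR1-/- arrays (log2 fold change 0.98, limma adjusted p = 0.0302; 0.88 after quantile normalization). Atox1, a copper chaperone, gave 0.76 (adjusted p = 0.0657; 0.41 after quantile normalization). Of 7 tested genes of oxidant and metal stress 0 were called, and the smallest p-values were those of Hmox1, haem oxygenase (-0.88, adjusted p = 0.303), and Dnajb1, a heat shock co-chaperone (0.52, adjusted p = 0.355).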
